A study of Homo sapiens with 8 samples.

Results

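The hedgehog pathway was followed through 9 genes: SHH, PTCH1, SMO, GLI1, GLI2, GLI3, HHIP, GAS1 and BOC. They are listed by name, as ligand, receptors, transducer and transcription factors. All 9 were among the 18201 genes tested. Oligodendrocyte progenitor cells (OPCs) had been made from the human embryonic stem cell line H9, so a single established line stands behind every value. They were kept for 2 days on 1 of 3 coatings, without forced expression of SOX10. Matrigel is a basement membrane extract, VN is vitronectin, an adhesive protein of the extracellular matrix, and VNP2 is a designed peptide derived from it. Polyadenylated RNA was sequenced, and the 8 libraries were Matrigel replicates 2 and 3, VN replicates 1 to 3 and VNP2 replicates 1 to 3. For differentiation the study seeded OPCs on coatings in OPC medium. The recipe of that medium lists a Smoothened agonist, along with retinoic acid, insulin and basic fibroblast growth factor. The study's text on the RNA-seq comparison names no medium. If it was OPC medium for every group, no library shows the pathway without that agonist. The comparison asks how the RNA of the pathway's parts differed between the coatings. Nothing in the labels says whether the replicates were separate cultures, so p-values measure the spread between these libraries, which may be technical.

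Hedgehog ligands are secreted proteins that bind Patched receptors. In their absence Patched holds Smoothened inactive, and when the ligand binds, Smoothened moves into the primary cilium and the GLI transcription factors switch from repressing to activating their targets. PTCH1, HHIP and GLI1 are themselves targets, and for this reason their RNA is commonly read as a measure of pathway activity. In the ventral neural tube the ligand comes from the notochord and floor plate and induces the OLIG2 domain from which motor neurons and, later, OPCs arise.

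The sequence before the transcription start is shown for both genes whose RNA fell on both vitronectin coatings, SHH and GLI2, and for PTCH1, the textbook GLI target. Each stretch is the 250 bases upstream of a RefSeq start site in GRCh38.p14, 5′ to 3′ on the gene's strand. SHH has 1 such window, GLI2 has 2 and PTCH1 has 5, and for GLI2 and PTCH1 the window that holds a match was chosen after the search. RefSeq start sites need not be those of the GENCODE transcripts that were counted, and for the windows shown they differ from those of the main transcripts. The GLI2 window belongs to a start at 120735868, and GLI2-203, with the largest share of the level, starts at 120797291. For PTCH1 the start is 95509266, and PTCH1-201, with the largest share, starts at 95508661. For SHH the start is 155812463, and SHH-201 starts at 155812273. Capitals mark the GLI-binding sequence GACCACCCA or its core CCACCCA, which lies inside it, on either strand.
SHH, chr7:155812464-155812713, minus strand: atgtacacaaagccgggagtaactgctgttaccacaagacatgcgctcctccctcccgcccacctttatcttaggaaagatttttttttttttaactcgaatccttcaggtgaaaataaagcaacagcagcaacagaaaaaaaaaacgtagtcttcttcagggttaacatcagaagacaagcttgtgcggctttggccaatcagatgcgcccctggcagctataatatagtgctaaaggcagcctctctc
GLI2, chr2:120735618-120735867, plus strand: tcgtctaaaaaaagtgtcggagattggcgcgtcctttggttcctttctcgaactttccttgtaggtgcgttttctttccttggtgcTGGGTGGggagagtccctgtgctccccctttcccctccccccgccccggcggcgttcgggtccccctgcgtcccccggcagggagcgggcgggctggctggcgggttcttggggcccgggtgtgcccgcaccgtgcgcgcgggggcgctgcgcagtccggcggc
PTCH1, chr9:95509267-95509516, minus strand: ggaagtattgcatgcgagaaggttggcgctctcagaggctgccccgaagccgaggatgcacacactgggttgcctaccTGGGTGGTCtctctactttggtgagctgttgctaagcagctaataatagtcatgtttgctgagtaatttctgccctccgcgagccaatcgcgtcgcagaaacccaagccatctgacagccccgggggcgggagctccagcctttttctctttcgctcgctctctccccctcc
Windows were found for 7 of the 9 genes, 13 windows in all, and not for GLI1 and GLI3. The 9-letter sequence was in 1 of these 13, the PTCH1 window shown, at positions -172 to -164 from the start, and in 0.199% of all 35116 windows of this length. The core alone was in 2 of the 13, the PTCH1 and GLI2 windows shown, and in 8.17% of all windows. The other 4 windows of PTCH1, the other window of GLI2 and the SHH window held neither. A match of letters is a description of the window and not a binding site.

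The genes lie at separate places in GRCh38 (GENCODE v29). SHH is at chr7:155799986-155812273, GLI3 at chr7:41960950-42237870 and SMO at chr7:129188872-129213545. PTCH1 is at chr9:95442980-95517057 and GAS1, also on chromosome 9, at chr9:86944363-86947189. GLI1 is at chr12:57460135-57472262, GLI2 at chr2:120735623-120992653, HHIP at chr4:144646021-144745271 and BOC at chr3:113211003-113287459. Exons of HHIP, SMO, PTCH1, BOC and GLI1 overlap exons of another gene on the opposite strand (HHIP-AS1, AC011005.4, AL161729.1, CFAP44 and ARHGAP9). The library kit marks strand, but the strand setting of the counting is not given in the sources used here, so the counts of these 5 genes are uncertain to that extent.

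Estimated counts per library ranged from 37997896 to 39429453. Within a coating, the median chi-square of a gene between a pair of libraries was 0.712 to 2.74, where sampling alone gives 0.455. No library was thus a copy of another, but whether a pair came from the same culture cannot be told from these values. VN replicate 1 stood furthest from its group: its values were 2.35 and 2.74, and the pair without it had 0.783. The label of OPCs was checked against a list of 10 markers. SOX10, a defining factor of the lineage, had 0 to 5 estimated counts per library, whereas OLIG2 had 1626 to 2169. The summed level of the list was 307 to 310 TPM (the abundance of a transcript relative to all others, per length) on Matrigel, 416 to 437 on VN and 441 to 462 on VNP2. PTPRZ1 alone had 106 to 189 TPM over the libraries. Against Matrigel, 5 of the 9 markers tested rose on VN and 8 rose on VNP2, and none fell. OLIG1 and OLIG2 were among those that rose on both coatings, and NKX2-2 among those on VNP2. The study had singled out these genes in these samples, so they are not independent evidence of a direction. Of all genes tested, 5.81% rose and 9.41% fell on VN, and 7.45% rose and 9.13% fell on VNP2.

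The pathway was expressed on all coatings, with the receptor and transducer well above the ligand. On the TPM scale PTCH1 was at 69.8 ± 0.522 (SD, n = 2) on Matrigel, 69.6 ± 8.97 (n = 3) on VN and 67.8 ± 0.538 (n = 3) on VNP2. SMO was at 66.2 ± 2.41, 67.5 ± 2.97 and 68.1 ± 1.13 TPM on the same coatings, and its libraries overlapped those of PTCH1 on VN and VNP2 but not on Matrigel. GLI3 followed with 26.7 ± 0.716, 26.6 ± 1.80 and 25.3 ± 0.601 TPM. SHH and BOC changed places. On Matrigel SHH had 20.6 and 21.1 TPM against 18.4 and 19.2 for BOC. On VN the SHH libraries lay between 15.5 and 15.7 TPM and those of BOC between 20.6 and 20.9. On VNP2 the ranges were 13.4 to 15.1 TPM for SHH and 23.9 to 24.4 for BOC. The ranges of the genes overlapped on none of the coatings.

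The lower part of the order was closer. GLI1 lay between 8.68 and 12.9 TPM over all 8 libraries. GLI2 was level with it on Matrigel, at 10.3 and 11.1 TPM, and lay below every GLI1 library of the same coating on VN (6.07 to 7.07) and VNP2 (4.83 to 6.57). HHIP had 5.76 to 8.64 TPM over all libraries and overlapped GLI2 on VN and on VNP2. GAS1 was the lowest of the 9, with 1.92 ± 0.0944 TPM on Matrigel, 3.04 ± 0.0861 on VN and 2.15 ± 0.239 on VNP2. The plot of TPM by gene shows this order.

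**Figure D1:**
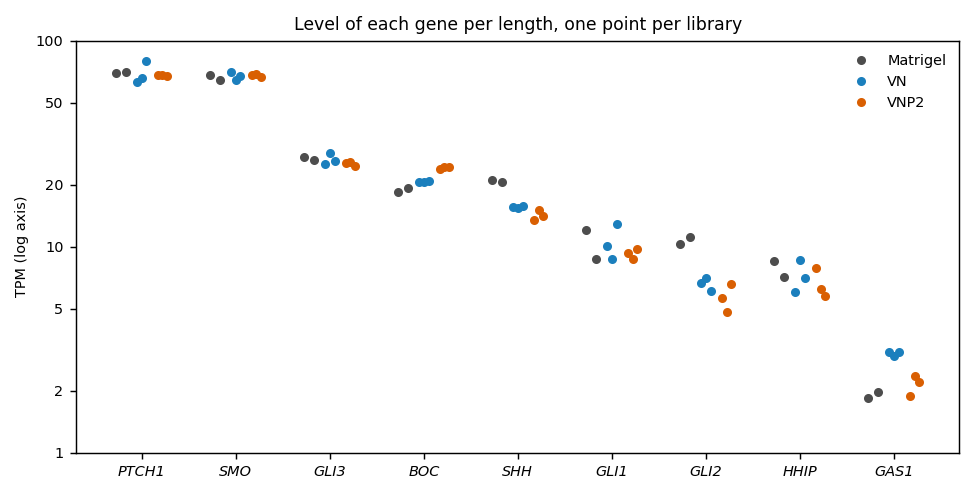
Level of the 9 genes in TPM on a log axis, with 1 point per library and colours for the coatings. PTCH1 and SMO lie between 63.1 and 79.9 TPM, and GAS1 lies between 1.85 and 3.10 TPM.

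Across the 3 coatings 4 of the 9 genes passed the test at an adjusted p under 0.05 (edgeR quasi-likelihood test, Benjamini-Hochberg over all genes): SHH, GLI2, BOC and GAS1. Of all genes tested, 19.3% passed. The adjusted p was 8.73e-05 for SHH, 0.000370 for GLI2, 0.00200 for BOC and 0.0251 for GAS1. On VN against Matrigel 2 genes were lower and 1 was higher, where 9.41% of all genes were lower, 5.81% higher and 15.2% called in either direction. On VNP2 against Matrigel 2 were again lower and 1 higher, against 9.13% lower, 7.45% higher and 16.6% in all. Between VNP2 and VN 1 gene was higher, against 3.07% higher, 2.1% lower and 5.18% in all. The median log2 fold change of the 9 genes was -0.08 for VN and -0.15 for VNP2 against Matrigel, and that of all genes was 0.01 and 0.00. Both contrasts share the Matrigel libraries. In bulk RNA, fewer cells that express a gene and less RNA per cell cannot be told apart.

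**Figure D2:**
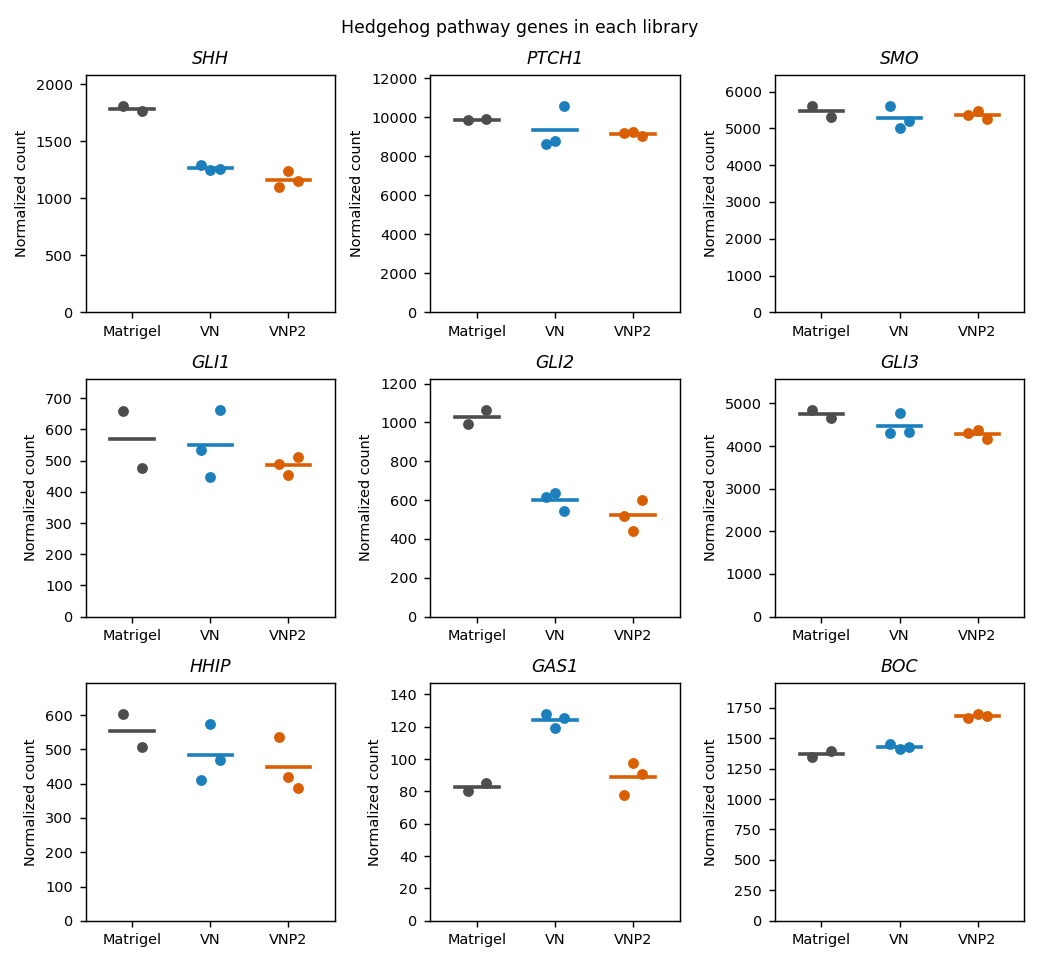
Normalized counts of each gene, with 1 point per library and a line at the mean of the 2 Matrigel, 3 VN or 3 VNP2 libraries; every axis starts at 0. SHH and GLI2 are higher in both Matrigel libraries than in the other 6, GAS1 is highest in the 3 VN libraries, and BOC is highest in the 3 VNP2 libraries.

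The ligand fell on both vitronectin coatings. SHH had normalized counts of 1813 and 1761 with Matrigel, 1291, 1245 and 1258 with VN, and 1097, 1235 and 1154 with VNP2. Both Matrigel libraries lay above all the others, and the VNP2 libraries lay just below those of VN without overlap. The log2 fold change was -0.50 ± 0.0577 (SE) for VN against Matrigel, or 0.708-fold, with an adjusted p of 0.000268. For VNP2 against Matrigel it was -0.62 ± 0.0578, or 0.650-fold, with an adjusted p of 4.15e-05. VNP2 against VN did not pass (-0.12, unadjusted p 0.0435, adjusted p 0.237). The call against Matrigel was kept in every alternative and without any single library. One transcript, SHH-201, carried 86.9 to 94.1% of the SHH level in TPM, so the fall is that of the main transcript.

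The other hedgehog ligands were almost absent. IHH had 1 to 6 and DHH 1 to 7 estimated counts per library, too few to be tested. HHAT, which attaches palmitate to the ligand, fell on VN and on VNP2, with log2 fold changes of -0.35 ± 0.0849 and -0.35 ± 0.0849 against Matrigel. Among the secreted SCUBE proteins, which help the lipid-bearing ligand leave the cell, the genes went opposite ways. SCUBE3 had a log2 fold change of -0.17 on VN and -0.39 on VNP2 against Matrigel, and of -0.22 between VNP2 and VN, and passed in each. SCUBE1 rose on VNP2 by 0.32 against Matrigel and by 0.28 against VN, and did not pass on VN (0.04, adjusted p 0.673). Of the 8 genes listed for ligand processing and release, 6 were tested. On VN 3 were lower, and on VNP2 3 were lower and 1 higher, with SHH among the lower genes on both. Of all genes tested, 9.41% were lower and 5.81% higher on VN, and 9.13% were lower and 7.45% higher on VNP2.

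The receptor PTCH1 did not pass in any comparison. Its normalized counts were 9860 and 9916 with Matrigel, 8618, 8768 and 10610 with VN, and 9211, 9239 and 9071 with VNP2. The VN libraries spread to both sides of the others, with replicate 3 highest of all 8. On the log2 scale the difference was -0.08 (95% interval -0.25 to 0.08) for VN and -0.11 (-0.27 to 0.06) for VNP2 against Matrigel. Without VN replicate 3 the VN value was -0.19 and passed, with an adjusted p of 0.0111. The spread was not in the estimated counts, which were 9420 and 9247 with Matrigel, 9327, 9534 and 9597 with VN, and 9204, 9322 and 9487 with VNP2. PTCH1-219, a retained-intron model of 578 bases, was given 124 and 91 counts with Matrigel, 25, 11 and 98 with VN, and 96, 67 and 90 with VNP2, so that both VN libraries with low normalized counts had few. In VN replicate 3, the highest library, its share of the gene's TPM was 13.5%, within the Matrigel range of 12.8 to 17.4%. PTCH1-214, a model of 525 bases, had 36.8 counts and 5.59% of the TPM in that library and 0 in the other 7. A larger share of short transcripts raises the length-adjusted value by construction. With transcripts of at least 1000 bases alone the VN value was 0.024, with an adjusted p of 0.586. PTCH1-201 carried 51.0 to 61.7% of the gene's TPM, and PTCH1-207 and PTCH1-209, which begin at other start sites, carried 4.41 to 14.0% and 4.38 to 7.21%.

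Smoothened, the transducer on which the agonist of OPC medium acts, passed in no pair. SMO had normalized counts of 5619 and 5312 with Matrigel, 5617, 5019 and 5193 with VN, and 5365, 5458 and 5264 with VNP2, and the coatings overlapped. Differences from Matrigel were -0.05 (95% interval -0.16 to 0.06) for VN and -0.03 (-0.14 to 0.08) for VNP2. Both intervals end well short of the change measured for SHH.

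The coreceptors BOC and GAS1 bind the ligand together with PTCH1, and both are known to be lowered by the signal. BOC had normalized counts of 1342 and 1398 with Matrigel, 1453, 1412 and 1426 with VN, and 1669, 1699 and 1685 with VNP2. All VNP2 libraries lay above the rest, and those of VN lay narrowly above those of Matrigel. BOC rose on VNP2 by 0.30 ± 0.0473 against Matrigel (1.23-fold, adjusted p 0.00164) and by 0.24 ± 0.0419 against VN (1.18-fold, adjusted p 0.00924). On VN it did not pass (0.06, adjusted p 0.420). The rise on VNP2 was kept in every alternative and without any single library. CFAP44, whose exons overlap BOC on the other strand, was also higher on VNP2 than on Matrigel (0.33, adjusted p 0.0183), and its part in the BOC counts was not tested.

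GAS1 was highest on VN. Its normalized counts were 80.1 and 85.5 with Matrigel, 128, 119 and 126 with VN, and 78.1, 97.4 and 90.6 with VNP2. The VN libraries lay above all the others, and Matrigel and VNP2 overlapped. For VN against Matrigel it changed by 0.59 ± 0.151 (1.50-fold, adjusted p 0.0264), and for VNP2 against VN by -0.49 ± 0.132 (adjusted p 0.0668). With about 100 counts per library the call was not firm. It was lost with DESeq2 (adjusted p 0.0667) and without Matrigel replicate 2 or 3 or VN replicate 2 or 3 (adjusted p 0.150, 0.100, 0.0519 and 0.0667). The other receptors did not move as a group. CDON, the third coreceptor, passed in no pair, and LRP2, the large endocytic receptor megalin, was lower on VNP2 (-0.47 ± 0.0507 against Matrigel and -0.31 ± 0.0458 against VN).

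**Figure D3:**
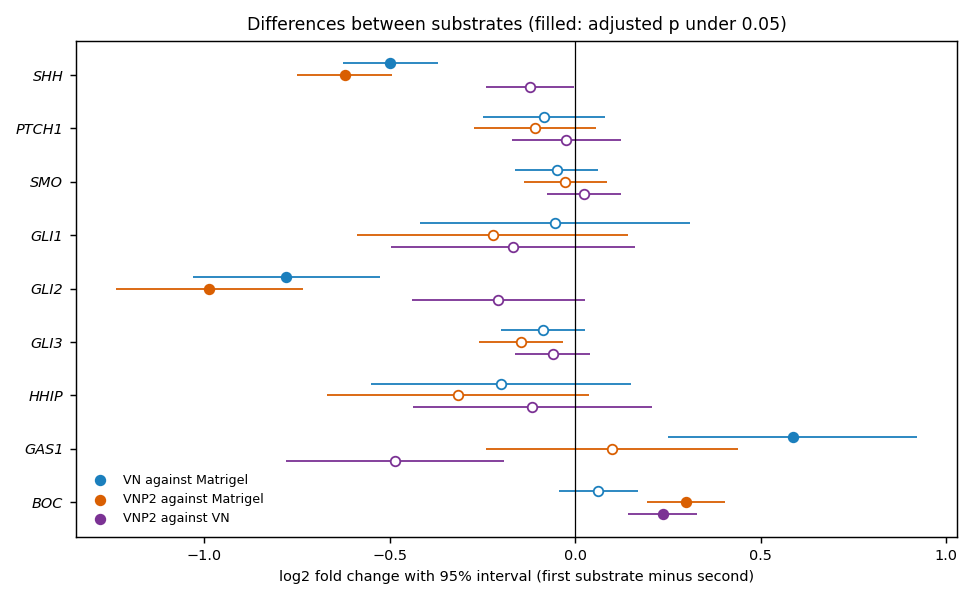
Log2 fold change of each gene for the 3 pairs of coatings, with 95% intervals; filled points had an adjusted p under 0.05. SHH and GLI2 lie below 0 on both vitronectin coatings against Matrigel, BOC lies above 0 for both VNP2 contrasts, and the intervals of PTCH1, SMO, GLI1 and HHIP all cross 0.

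Of the transcription factors, GLI2 fell most. GLI2, the main activator of the first response to the ligand, had normalized counts of 992 and 1066 with Matrigel, 616, 638 and 546 with VN, and 519, 443 and 601 with VNP2. Both Matrigel libraries lay far above the other 6, and VN and VNP2 overlapped. The log2 fold change was -0.78 ± 0.113 for VN (0.583-fold, adjusted p 0.00122) and -0.99 ± 0.113 for VNP2 (0.505-fold, adjusted p 0.000185) against Matrigel. VNP2 against VN did not pass (-0.21, adjusted p 0.313). The estimated counts, 898 and 893 with Matrigel, 670, 604 and 539 with VN, and 597, 523 and 573 with VNP2, gave -0.60 and -0.71 without the length adjustment, and the call was kept in every alternative. GLI2-203 carried 35.3 to 59.1% of the level, and a model of 315 bases, GLI2-204, carried 14.98 to 29.6% on 3 to 11 counts.

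GLI3, the main repressor, differed little. Its normalized counts were 4851 and 4648 with Matrigel, 4316, 4778 and 4324 with VN, and 4309, 4385 and 4171 with VNP2. Both Matrigel libraries lay above the 3 of VNP2, and those of VN reached into the Matrigel range. Against Matrigel the log2 fold change was -0.09 (adjusted p 0.292) for VN and -0.15 (95% interval -0.26 to -0.03, adjusted p 0.0787) for VNP2. The VNP2 value passed with the libraries of that pair alone (adjusted p 0.0268) and without VN replicate 2 (0.0367).

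GLI1, which is switched on by the signal and is its most used readout, did not pass in any pair. Normalized counts were 661 and 477 with Matrigel, 535, 449 and 663 with VN, and 489, 455 and 512 with VNP2, and the 2 Matrigel libraries lay further apart than the means of the coatings. The log2 fold change was -0.05 (95% interval -0.42 to 0.31) for VN and -0.22 (-0.59 to 0.14) for VNP2 against Matrigel. The estimated counts were closer together, at 563 and 529 with Matrigel, 534, 558 and 543 with VN, and 513, 451 and 512 with VNP2. The 3 highest normalized values were in the libraries where GLI1-203, a model of 480 bases, was given counts: 18, 12 and 9 in Matrigel replicate 2, VN replicate 1 and VN replicate 3, and none in the other 5.

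HHIP, a membrane protein that traps the ligand and is induced by the signal, depended on how transcripts were weighed. Its normalized counts were 604 and 506 with Matrigel, 410, 574 and 468 with VN, and 535, 420 and 388 with VNP2, and the coatings overlapped. On the log2 scale HHIP differed by -0.20 (95% interval -0.55 to 0.15) for VN and -0.32 (-0.67 to 0.04, adjusted p 0.221) for VNP2 against Matrigel. Estimated counts, which are not adjusted for depth, were 628 and 557 with Matrigel, 402, 491 and 545 with VN, and 427, 457 and 400 with VNP2. Both Matrigel libraries lay above the other 6, which overlapped, but VN replicate 3 came close to Matrigel replicate 3. The total estimated counts of these libraries were 37997896 and 39053569, so their order is not firm. HHIP-205, a model of 563 bases, had 20, 13, 21 and 5 counts in VN replicates 2 and 3 and VNP2 replicates 1 and 3, and none elsewhere. With transcripts of at least 1000 bases alone, a setting chosen after the values were seen, HHIP passed on VN (-0.51, adjusted p 0.00344) and on VNP2 (-0.63, adjusted p 0.000772). Without the length adjustment it passed on VNP2 (-0.51, adjusted p 0.0119). HHIP-AS1, which overlaps it on the other strand, had 82 and 103 estimated counts on Matrigel and 67 to 75 on the other coatings, and did not pass (-0.43, adjusted p 0.114, and -0.39, adjusted p 0.158).

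**Figure D4:**
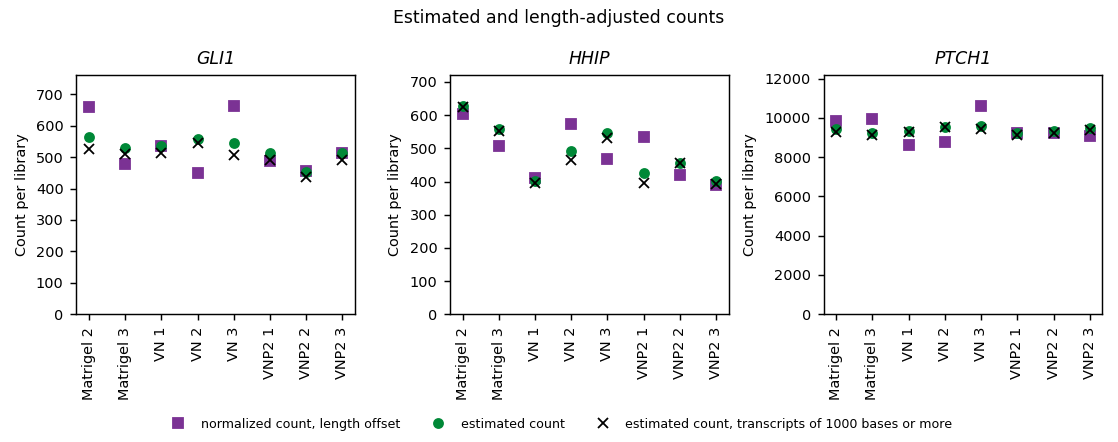
Counts of GLI1, HHIP and PTCH1 in each of the 8 libraries: estimated counts, estimated counts in transcripts of at least 1000 bases, and normalized counts adjusted for average transcript length. GLI1 and PTCH1 spread more after the adjustment than before it. The HHIP estimated counts of both Matrigel libraries lie above the other 6, narrowly so for VN replicate 3 and with no adjustment for depth.

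The wider pathway was read from 7 lists with 85 genes in all, the 9 above included, of which 79 were tested. On VN 3 rose and 6 fell, on VNP2 9 rose and 8 fell, and between VNP2 and VN 5 were higher and 4 lower. The share called was 11.4% on VN, 21.5% on VNP2 and 11.4% between VNP2 and VN, beside 15.2%, 16.6% and 5.18% of all genes tested. Without Matrigel replicate 2 or 3 the number called was 4 or 3 of these genes on VN, in place of 9, and 11 or 8 on VNP2, in place of 17. Without VN replicate 2, VN replicate 3 or VNP2 replicate 2 it was 5 between VNP2 and VN, in place of 9. Their median log2 fold change was 0.04, 0.02 and -0.02 in these pairs, and that of all genes was 0.01, 0.00 and 0.00. Of the 21 cytoplasmic and ciliary transducers 14.3% were called on VNP2, all of them higher. Among all genes 16.6% were called on VNP2, with 7.45% higher. None of these transducers passed on VN with edgeR or with DESeq2, and 3 had an unadjusted p under 0.05. On VNP2 PRKAR1A, a regulatory subunit of protein kinase A, SPOP, an adaptor for GLI degradation, and IQCE, a ciliary scaffold protein, rose by 0.14, 0.20 and 0.30. SUFU, the inhibitor that holds GLI proteins in the cytoplasm, and the kinesin KIF7 passed in no pair. Of 26 genes of intraflagellar transport and the cilium, 2 passed on VN (DYNC2H1, -0.23, and BBS4, 0.20) and 1 on VNP2 (BBS4, 0.19). These were 7.69% and 3.85% of the list, beside 15.2% and 16.6% of all genes.

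The 15 induced target genes split. On VN OLIG2 rose by 0.31 and CCND1 fell by 0.39 on the log2 scale (log2 fold change -0.39), and on VNP2 3 rose and 3 fell. Beside these, 5.81% of all genes tested rose and 9.41% fell on VN, and 7.45% rose and 9.13% fell on VNP2. CCND1, the cell cycle gene cyclin D1, had normalized counts of 15046 and 14909 with Matrigel, 11459, 11388 and 11396 with VN, and 10546, 10695 and 10404 with VNP2. The coatings did not overlap, and the log2 fold change on VNP2 was -0.51 ± 0.0299 (adjusted p 1.55e-06). CCND2 and BCL2 fell on VNP2, with log2 fold changes of -0.13 and -0.16. The progenitor-domain factors went the other way. NKX6-1 rose on VNP2 by 0.50 and NKX2-2 by 0.34 against Matrigel, and by 0.39 and 0.26 against VN, and OLIG2 rose by 0.23 against Matrigel. OLIG2 and NKX2-2 were singled out by the study in these samples, so they are not independent evidence of a direction. FOXA2 passed in no pair. Of the 10 genes known to be lowered by the signal, 6 were tested, and apart from BOC and GAS1 none passed; PAX6, PAX7, PAX3 and DBX2 had 36, 5, 2 and 26 estimated counts over all 8 libraries.

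**Figure D5:**
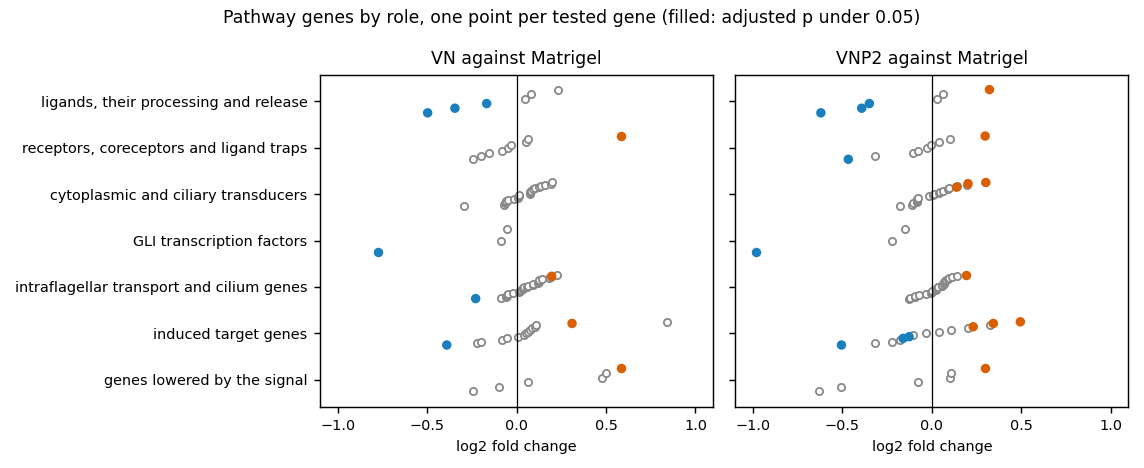
Log2 fold changes on VN and on VNP2 against Matrigel for the tested genes of 7 pathway lists, with 1 point per gene; filled points had an adjusted p under 0.05. The lowest point in both panels is GLI2, and the induced targets have called genes on both sides of 0.

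Markers of other cell types also moved with the coatings, and their part in the results above was not tested. For comparison, 5.81% of all genes tested rose on VN while 9.41% fell, and on VNP2 7.45% rose while 9.13% fell. The summed level of 10 neuronal markers was 836 to 870 TPM on Matrigel, 924 to 980 on VN and 1004 to 1034 on VNP2, and 4 of the 10 rose and 1 fell on VN while 6 rose on VNP2. Of 10 mesenchymal markers 3 rose and 3 fell on VN and 5 rose and 3 fell on VNP2, with summed levels of 545 to 553, 599 to 636 and 523 to 557 TPM. Of 10 neural crest markers, 8 were tested, ETS1 fell on both coatings (-1.38 and -0.97) and 2 rose on VNP2, with sums of 77.2 to 78.8, 61.2 to 64.9 and 76.9 to 78.5 TPM. Of 10 pluripotency markers, 9 were tested, 1 fell on VN and 3 fell and 1 rose on VNP2, with sums of 93.9 to 99.0, 84.9 to 87.8 and 77.7 to 81.5 TPM. No gene of the neuronal, mesenchymal or pluripotency list was at 0 in every library of a coating, and of the crest list SOX10 was at 0 on Matrigel.

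The genes whose pattern over the 8 libraries was most like that of 3 members were sought among 12995 genes whose normalized count averaged 100 or more. For SHH these were PRKAG2, PLS3, NUAK2, GPC4 and NRK, with Pearson's r of 0.988 to 0.990. For PTCH1 they were ZNF106, ARHGAP6, AKAP17A, ZNF655 and MFSD6 (0.928 to 0.945), and for GLI1 they were UBLCP1, PKD1, AC026464.4, PDHA1 and MRPS17 (0.881 to 0.955). No other member was among these genes. The points are libraries of 3 coatings that share the length adjustment, so these values are a description.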

How the data were processed

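RNA was sequenced in 8 libraries, grouped by the labels. Per the labels and the study's methods, the authors trimmed reads with Trim Galore and ran Salmon on GENCODE v32 transcripts (GRCh38.p13), and deposited estimated counts, effective lengths and TPM per transcript. They also deposited a gene table, a signal made with DESeq2 1.27.12 by dividing counts by normalization factors. Here, transcripts were matched by identifier to GENCODE v29 (205225 of 226608, holding 98.8 to 98.9% of counts) and summed per gene, and counts were rounded. Members' mean levels were 0.997 to 1.00 times those of the gene table. Genes were filtered with filterByExpr (minimum count 10, total 15) and fitted in edgeR 4.0.16 (R 4.3.3) by quasi-likelihood with TMM and length offsets, all 8 libraries in one fit, without a replicate block. Two-sided p-values were adjusted by Benjamini-Hochberg within a comparison, across every gene tested. Normalized counts come from this fit. Alternatives used DESeq2 1.42.0 and limma 3.58.1, among others. Scripts were tested on simulated data. Intervals cover the spread between libraries. The members and gene lists were chosen with earlier results of these data known. Genes of the lists are named where called in a pair, and IHH, DHH, CDON, LRP2, SUFU and KIF7 in any case, apart from genes of the lists that are not reported here; CFAP44, HHIP-AS1 and genes too low to test were named after their values were seen. Transcripts missing from v29 are left out.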

Additional observations from a re-analysis of the deposited data

How the results depend on the processing

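The calls of SHH and GLI2 on both vitronectin coatings and of BOC on VNP2 held in every alternative run. Among the members' log2 fold changes, 232 values from other settings and 203 with a library left out kept direction and side of the threshold, whereas 2 and 7 changed direction. With the direction kept, 8 and 2 values came to pass that had not passed before, and 1 and 4 no longer passed. With the libraries of the pair alone, 5 members passed on VNP2 against Matrigel (PTCH1 and GLI3 were added). Between VNP2 and VN 2 passed, GAS1 added, without length offsets, with at least 50 counts in every library and with transcripts of at least 1000 bases, the last chosen after seeing the data. That setting turned the VN values of PTCH1 (0.024) and GLI1 (0.011). With a library left out, 3 to 13 pathway genes passed on VN, 8 to 18 on VNP2 and 5 to 12 between VNP2 and VN. Direction turned for GLI1 on VN (-0.28 to 0.19) and VNP2 (-0.45 to 0.026), for SMO on VNP2 against Matrigel (-0.068 to 0.016) and VN (-0.010 to 0.070), and against VN for PTCH1 (-0.078 to 0.079) and HHIP (-0.26 to 0.020), none called; the cause was not tested. After the mean of each coating was removed, same-numbered libraries had correlations of -0.0863 to 0.0530. With so few libraries per coating these deviations constrain one another, so whether the numbers pair the samples cannot be told. With a replicate block 3, 3 and 1 members passed in the 3 pairs, as without it, and 10, 15 and 11 pathway genes.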

Other observations

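Genes of the floor plate, the ventral midline tissue that secretes the ligand in the embryo, moved both ways on each vitronectin coating. Of 11 listed genes 9 were tested. On VN 2 rose and 3 fell, SHH among them, and on VNP2 6 rose and SHH fell. Of all genes tested, 5.81% rose and 9.41% fell on VN, and 7.45% rose and 9.13% fell on VNP2. FOXA1, a forkhead factor of the floor plate, had normalized counts of 2316 and 2289 with Matrigel, 2525, 2775 and 2650 with VN, and 2998, 3138 and 3178 with VNP2, and the coatings did not overlap. FOXJ1, a regulator of motile cilia, rose on VNP2 by 0.64 ± 0.0430 (adjusted p 3.78e-06). FOXA2 passed in no pair.

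Between VNP2 and VN 4 of the 9 tested floor plate genes were higher (FOXA1, FOXJ1, NTN1 and CORIN) and none was lower. Of all genes tested, 3.07% were higher and 2.1% lower in that pair. Against Matrigel, the midline genes NTN1 and CORIN both fell on VN and both rose on VNP2. The study had also listed CORIN as higher on VNP2 than on VN. CORIN, a membrane protease, had normalized counts of 234 and 252 with Matrigel, 119, 145 and 147 with VN, and 369.5, 324 and 423 with VNP2. It fell on VN (log2 fold change -0.83 ± 0.140, adjusted p 0.00328) and rose on VNP2 (0.61 ± 0.135, adjusted p 0.0107), and VNP2 against VN gave 1.44 ± 0.125 (adjusted p 0.000129). NTN1, the axon guidance cue netrin-1, fell on VN (-0.29) and rose on VNP2 (0.28) against Matrigel, and VNP2 against VN gave 0.57. The summed level of the list was 541 to 549 TPM on Matrigel, 562 to 577 on VN and 668 to 697 on VNP2.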
